A study of Mus musculus with 13 samples.

Results

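The genes described here are 37 lysosomal genes, listed by name, out of the 55353 gene symbols in the count files of a mouse liver single-cell atlas. They comprise cathepsins and other hydrolases, lysosomal membrane and lipid-transfer proteins, subunits of the proton pump and the transcription factors Tfeb and Mitf. Their raw UMI (unique molecular identifier) counts were read in barcodes with at least 1500 UMIs, and were summed for each library and each of 7 cell types set by marker genes. These types were Kupffer cells, other macrophages, type 1 and type 2 conventional dendritic cells (cDC1, cDC2), plasmacytoid dendritic cells (pDC), liver sinusoidal endothelial cells (LSEC) and biliary epithelial cells (BEC). The names stand for clusters with the markers of that type, so that each is to be read as Kupffer-like, LSEC-like and so on. A level is given throughout as CPM, its UMIs scaled to the total of the cells of that type in that library.

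Male C57BL/6J mice of 6 to 12 weeks received chow with DDC (3,5-diethoxycarbonyl-1,4-dihydrocollidine), at 0.1%, which injures bile ducts. Cells were taken before the diet (D0) and after DDC at D3, D5, D9, D19 and D25, each day once by isolation protocol A and once by protocol B. Protocol A sorted live singlets, leukocytes (Cd45+), cholangiocytes (Epcam+), cells positive for Lyve-1 or for Pdpn, Cd31+ cells without Lyve-1, and retinoid-autofluorescent cells. Protocol B took live cells of a stellate cell preparation and sorted Cd45+ Cd11c+ Cd64-, Epcam+ and Cd3e+ Lyve-1- cells, so its gate for Cd45+ cells left out Cd64+ macrophages. One further library, STOP, came from protocol B after 18 days of DDC and 7 days of recovery. The labels give no mutant allele or transgene for any group, and all libraries were 10x Genomics 3′ libraries. A library is named by day and protocol, D0 A for example. The 12 atlas libraries gave 2 at steady state (D0), 4 at onset (D3 and D5) and 6 at progression (D9, D19 and D25). The D19 B library carries day 18 in 1 of its labels and is counted as D19 after its title. No label links mice to libraries, so SDs and p-values count libraries, whose independence as animals is not known.

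In all, 95563 of 17968683 barcodes passed as cells, with 1541 to 14764 in a library and a median of 3350 to 12013 UMIs per cell. A library held from 29307190 to 108602421 UMIs in all. The 7 types held 39577 cells, and 27673 cells (29.0%) stayed unnamed. The 78 pairs of libraries shared at most 0.519% of cell barcodes. Kupffer cells at D0 numbered 338 in protocol A and 24 in protocol B, and other macrophages 110 and 32. cDC2 and pDC had their only usable D0 library in protocol B, and BEC in protocol A, since a library needed 20 cells of a type. Different clusters held most cells of a type at different stages. Of the Kupffer cells, m14 held 298 at steady state and 197 at progression, and m12 held 4 and 787. Of the other macrophages, m39 held 70 at steady state and 0 at progression, and m2, m4, m5 and m7 held most of those under DDC. cDC1, cDC2, pDC and BEC of D0 likewise lay mostly in clusters of their own (m11, m18, m19 and a29), and the LSEC cluster a18 held 2 steady-state and 1606 progression cells.

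Lysosomes are acidic organelles in which hydrolases break down proteins, lipids and glycans that arrive from outside the cell or by autophagy. The vacuolar proton ATPase keeps their lumen acidic, and glycosylated membrane proteins line and protect the membrane. The factors Tfeb, Tfe3 and Mitf bind E-box elements of lysosomal genes and can raise their transcription. In the liver, Kupffer cells and LSEC clear material from blood, macrophages take up dying cells and lipid, and dendritic cells use lysosomal proteases to prepare antigen and the invariant chain for MHC class II.

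Since transcription of lysosomal genes is regulated through the region before the start site, promoter sequences were searched for motifs. RefSeq promoters of 300 bases (250 before and 50 after the start, GRCm38.p6) were available for 32 of the 37 genes and for 27025 genes in all. The E-box CACGTG, the core of the element bound by Tfeb, occurred in 9 of the 32 (28.1%), in 18 of 54 other lysosomal genes (33.3%) and in 8.09% of all genes. The 10-base palindrome of the CLEAR element, which contains the E-box and so overlaps with it, occurred in 0 of the 32, in 2 of the 54 (3.70%) and in 0.370% of all genes. The AP-1 motif TGANTCA occurred in 4 of the 32 (12.5%), in 5 of the 54 (9.26%) and in 8.97% of all genes. Both strands were searched. The 9 genes with an E-box were Ctsa, Ctsd, Ctsf, Ctsl, Lamp1, Gaa, Atp6v1a, Mcoln1 and Glb1, and the 4 with an AP-1 motif were Cd68, Psap, Neu1 and Glb1. A match describes letters in this window and not a bound site. The 250 bases before the start are shown for Cd63, Ctsd and Cd68, members whose macrophage levels are described at length below, in lower case with motif matches in capitals, 5′ to 3′ on the strand of the gene.
Cd63, chr10:128909095-128909344, forward strand: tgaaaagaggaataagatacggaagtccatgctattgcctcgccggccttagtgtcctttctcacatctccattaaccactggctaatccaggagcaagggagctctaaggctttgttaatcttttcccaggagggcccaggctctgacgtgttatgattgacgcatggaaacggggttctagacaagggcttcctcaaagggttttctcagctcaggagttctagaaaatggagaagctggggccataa
Ctsd, chr7:142387828-142388077, reverse strand: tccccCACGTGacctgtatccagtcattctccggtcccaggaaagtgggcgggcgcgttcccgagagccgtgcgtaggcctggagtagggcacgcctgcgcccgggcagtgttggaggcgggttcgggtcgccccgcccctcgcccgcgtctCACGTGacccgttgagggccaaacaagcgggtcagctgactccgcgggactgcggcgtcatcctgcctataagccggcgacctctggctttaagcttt
Cd68, chr11:69666171-69666420, reverse strand: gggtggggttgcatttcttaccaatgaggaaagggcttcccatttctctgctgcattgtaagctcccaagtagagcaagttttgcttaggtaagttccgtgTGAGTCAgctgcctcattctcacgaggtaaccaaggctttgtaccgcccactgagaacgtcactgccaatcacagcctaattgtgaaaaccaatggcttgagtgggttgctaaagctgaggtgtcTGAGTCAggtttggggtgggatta
The Ctsd promoter held the E-box at positions -245 and -98 from the start, that of Cd68 held TGAGTCA at -149 and -24, and that of Cd63 held none of the 3 motifs in the 300 bases. The promoters of Ctsz and Lipa held none either.

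Across cell types, the 37 genes together took the largest share of UMIs in macrophages. It was 2.72% ± 0.302 in Kupffer cells and 2.76% ± 0.464 in other macrophages (SD, n = 12 atlas libraries each). In pDC it was 1.48% ± 0.105 (n = 8), in cDC2 0.996% ± 0.147 and in cDC1 0.908% ± 0.0994 (n = 11 each). LSEC reached 0.867% ± 0.0829 (n = 12) and BEC 0.454% ± 0.0345 (n = 9). T cells of the same libraries held 0.331% ± 0.0928 (n = 12), which includes any expression of these genes by T cells. The mean level was highest in Kupffer cells for 15 of the 37 genes and in other macrophages for 11. LSEC led for Lamp2, Gaa, Scarb2, Tpp1 and Mcoln1, pDC led for Ctsh, Ctsl, Npc1 and Tfeb, and cDC1 led for Ppt1 and Fuca1. The libraries of the leading type stood clear of those of the next type for Lamp2 in LSEC (highest in 12 of 12 libraries) and Ppt1 in cDC1 (highest in 11 of 11), and overlapped them for the remaining genes.

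**Figure D1:**
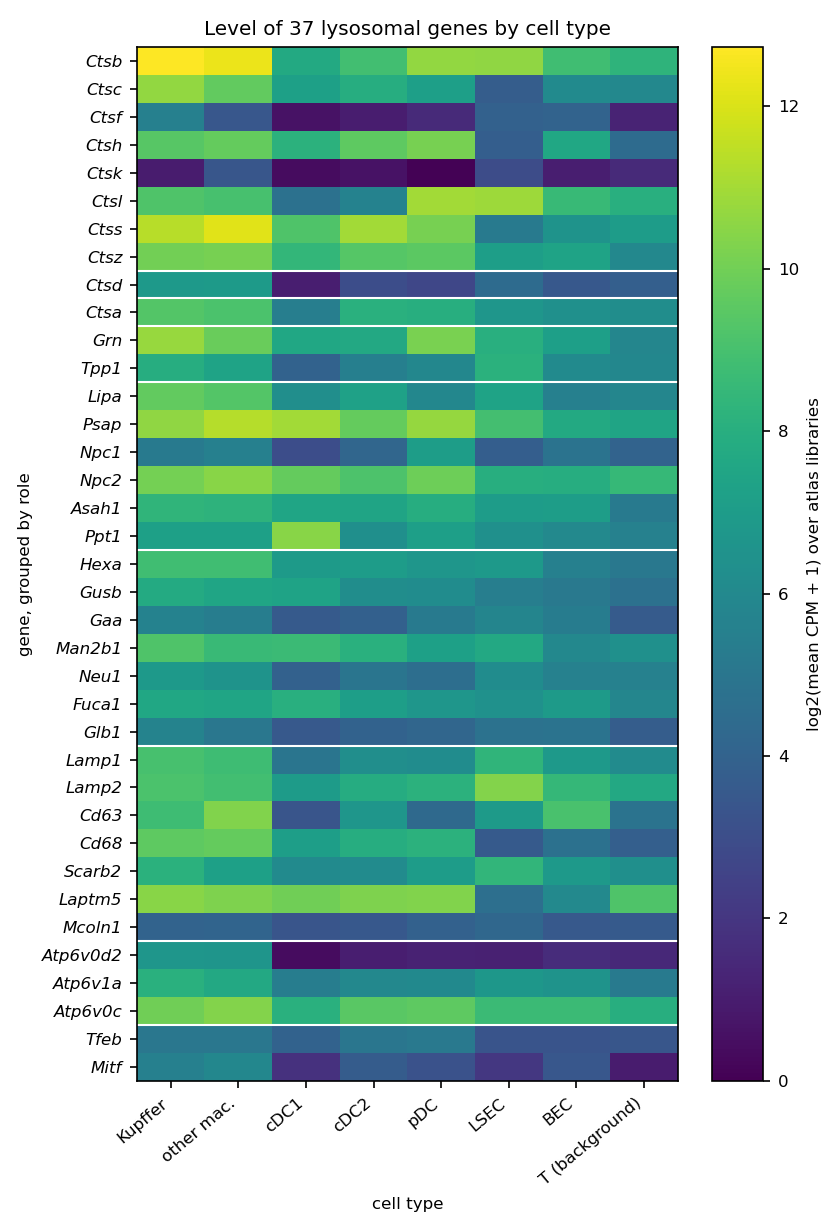
Mean level of each of the 37 genes over atlas libraries in the 7 cell types and in T cells (marked as background), as log2(mean CPM + 1) on the colour scale, with genes in rows grouped by role and cell types in columns. The macrophage columns are brightest for most genes, while Lamp2 peaks in LSEC (1311 ± 155 CPM) and Ppt1 in cDC1 (1408 ± 254 CPM).

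Kupffer cells and other macrophages differed in which lysosomal genes they carried. Within libraries (edgeR quasi-likelihood test with the library as block, adjusted over all genes tested), 11 of 37 genes were higher and 11 lower in other macrophages. Of all 11098 genes tested, 45.1% were called (23.2% higher and 21.9% lower). Scaling by total counts gave 9 higher and 16 lower. Ctsk, a collagen-degrading cathepsin, was at 9.51 ± 7.28 CPM in other macrophages and 0.967 ± 1.09 CPM in Kupffer cells (SD, n = 12), with a log2 difference of 3.34 (SE 0.31, adjusted p = 8e-09). Cd63, a tetraspanin of late endosomes and lysosomes, was at 1282 ± 592 CPM against 434 ± 390.2 CPM, with a log2 difference of 2.05 (SE 0.24, adjusted p = 1.8e-07). The elastin-degrading cathepsin Ctss (log2 difference 0.85), the sphingolipid activator precursor Psap (0.79), the cholesterol carrier Npc2 (0.48) and the proton-pump subunit Atp6v0c (0.48) were also higher, as were Mitf (0.39) and Tfeb (0.35). The call of Tfeb was lost without D3 B, D5 A, D9 A, D19 A, D19 B or D25 A, with log2 differences of 0.26 to 0.47 over the fits that each left out 1 library. In the other direction, Ctsf, a cysteine cathepsin, had a log2 difference of -2.32 (SE 0.17, adjusted p = 8.8e-11). Ctsc, which activates granule proteases (-0.92), the enzyme receptor Scarb2 (-0.88), the granulin precursor Grn (-0.86) and the cysteine protease Ctsb (-0.36) were lower as well. The call of Ctsb was lost without D9 B (-0.39 to -0.28 over the same fits). Reads of Cd63 and Atp6v0c could be shared with pseudogenes, since 42.8% of the 31-base words in the last 500 bases of Cd63 transcripts also occur in Cd63-ps, and 29.7% of those of Atp6v0c in its pseudogenes. Counting of Ctsd is uncertain too, since 63.7% of its 2351 exonic bases also lie in Gm49369 on the same strand. Gm49369 itself held 5 UMIs and Ctsd 15273 in the 7 types and T cells of all libraries.

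LSEC carried most of the genes at a lower level than Kupffer cells of the same library. Of 37 genes, 30 were lower and 3 higher, with 73.5% of 11207 genes (40.1% higher and 33.5% lower) called. The log2 difference was -7.30 (SE 0.26, adjusted p = 1.1e-15) for Ctsc, -6.57 for Ctss, -6.30 for the macrophage membrane protein Cd68 and -6.26 for Laptm5, a lysosomal membrane protein of leukocytes. The 3 higher genes were Ctsk (1.98), Ctsl, an endopeptidase (1.42), and Lamp2, a structural protein of the lysosomal membrane with a part in autophagy (1.03). Ctsk was low, with a mean of 1.11 CPM in Kupffer cells under DDC. Barcodes with under 100 UMIs held 4.45 to 9.70 CPM of Ctsk in the DDC libraries of protocol A. The part of this background in its difference was not tested. Lamp2 was at 1311 ± 155 CPM in LSEC and 554 ± 107 CPM in Kupffer cells (SD, n = 12), and its lowest LSEC library (D25 B) was above its highest Kupffer library. Mean levels of Ctss (35.8 ± 20.3 CPM), Cd68 (11.1 ± 5.18 CPM) and Ctsc (12.4 ± 6.36 CPM) in LSEC were below those in T cells (129.7 ± 50.6, 13.4 ± 7.63 and 60.1 ± 24.8 CPM). They were also below barcodes with under 100 UMIs of the atlas libraries (370 to 2094, 87.5 to 601 and 115 to 553 CPM) and are read as background.

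Among dendritic cells, Ppt1 marked cDC1 and Ctsl marked pDC. cDC2 against cDC1 gave 24 higher and 6 lower genes of 34 tested, with 53.3% of 11224 genes (27.4% higher and 25.9% lower) called. Ppt1, which removes palmitate from proteins, was at 1408 ± 254 CPM in cDC1 and 79.2 ± 19.6 CPM in cDC2 (SD, n = 11 each), with a log2 difference of -4.06 (SE 0.10, adjusted p = 4.9e-17). Psap (-1.30), the glucuronidase Gusb (-1.08) and the fucosidase Fuca1 (-0.93) were also lower in cDC2. Higher in cDC2 were Cd63 (2.84), the protective protein Ctsa (2.67), the aspartic protease Ctsd (2.66), Mitf (2.13) and the peptidase Tpp1 (1.69). Ctsd had a mean of 1.25 CPM in cDC1 under DDC, where barcodes with under 100 UMIs held 6.88 to 122 CPM. Of Cd63 such barcodes of the atlas libraries held 61.1 to 1031 CPM, above cDC2 in D0 B and at progression, as given below. The part of this background in the 2 differences was not tested. Ctss, a main protease of the invariant chain in dendritic cells, was at 1974 ± 275 CPM in cDC2 and 589 ± 138 CPM in cDC1, a log2 difference of 1.69 (SE 0.06, adjusted p = 1.5e-15).

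pDC differed from cDC2 by 9 higher and 11 lower genes of 35, with 58.5% of 10833 genes (27.7% higher and 30.8% lower) called, about the share of the members. Under scaling by total counts, which moved the median log2 difference of all genes from -0.01 to 0.33, the split was 16 higher and 8 lower, so directions here are relative to the other genes. Ctsl was at 1963 ± 753 CPM in pDC (n = 8) and 49.7 ± 20.3 CPM in cDC2 (n = 11), with a log2 difference of 5.09 (SE 0.19, adjusted p = 2.1e-14). Npc1, the membrane partner of Npc2 in cholesterol export, was higher by 2.83, Grn by 2.18 and Ctsb by 1.75. Lower in pDC were Cd63 (-1.61), Ctss (-1.22), the mannosidase Man2b1 (-1.21), the lipase Lipa (-1.16) and Ctsc (-1.11). Cd63 in pDC lay below barcodes with under 100 UMIs, as given below, and the part of this background in its difference was not tested.

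Other macrophages were above cDC2 for 34 of 37 genes and below for 0, with 56.0% of 11261 genes (28.3% higher and 27.8% lower) called. The largest log2 differences were Atp6v0d2, a proton-pump subunit of macrophages and osteoclasts (6.17, SE 0.21), Ctsd (4.58, SE 0.17), Cd63 (4.10, SE 0.30), Ctsk (4.04, SE 0.36), Ctsb (3.57, SE 0.14) and Ctsl (3.31, SE 0.14), with adjusted p-values of at most 6.6e-09 in edgeR's test.

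BEC carried the smallest share of these transcripts among the 7 types. Against LSEC, 9 genes were higher and 19 lower of 37, with 76.0% of 14157 genes (44.6% higher and 31.3% lower) called, about the share of the members. Ctsh, an aminopeptidase, was at 193 ± 65.8 CPM in BEC (n = 9) and 13.2 ± 8.60 CPM in LSEC (n = 12), a log2 difference of 3.45 (SE 0.21, adjusted p = 1.5e-10). Cd63 was at 543 ± 96.0 CPM in BEC and 121 ± 127 CPM in LSEC, a log2 difference of 2.28 (SE 0.37, adjusted p = 3e-05). Lower in BEC were Ctsk (-2.59), Ctsl (-2.25), Tpp1 (-2.01), Lipa (-1.99), Ctsb (-1.93) and Lamp2 (-1.90). The differences of Ctss (0.78) and Cd68 (0.68) changed sign within protocol A alone (-0.30 and -0.13) and were not called there. With single libraries left out, the call of Ctss was lost without D0 A, D3 B, D9 A, D9 B, D19 B or D25 B (0.43 to 0.91), and that of Cd68 without D0 A, D3 B, D9 A, D9 B or D19 B (0.38 to 0.78).

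**Figure D2:**
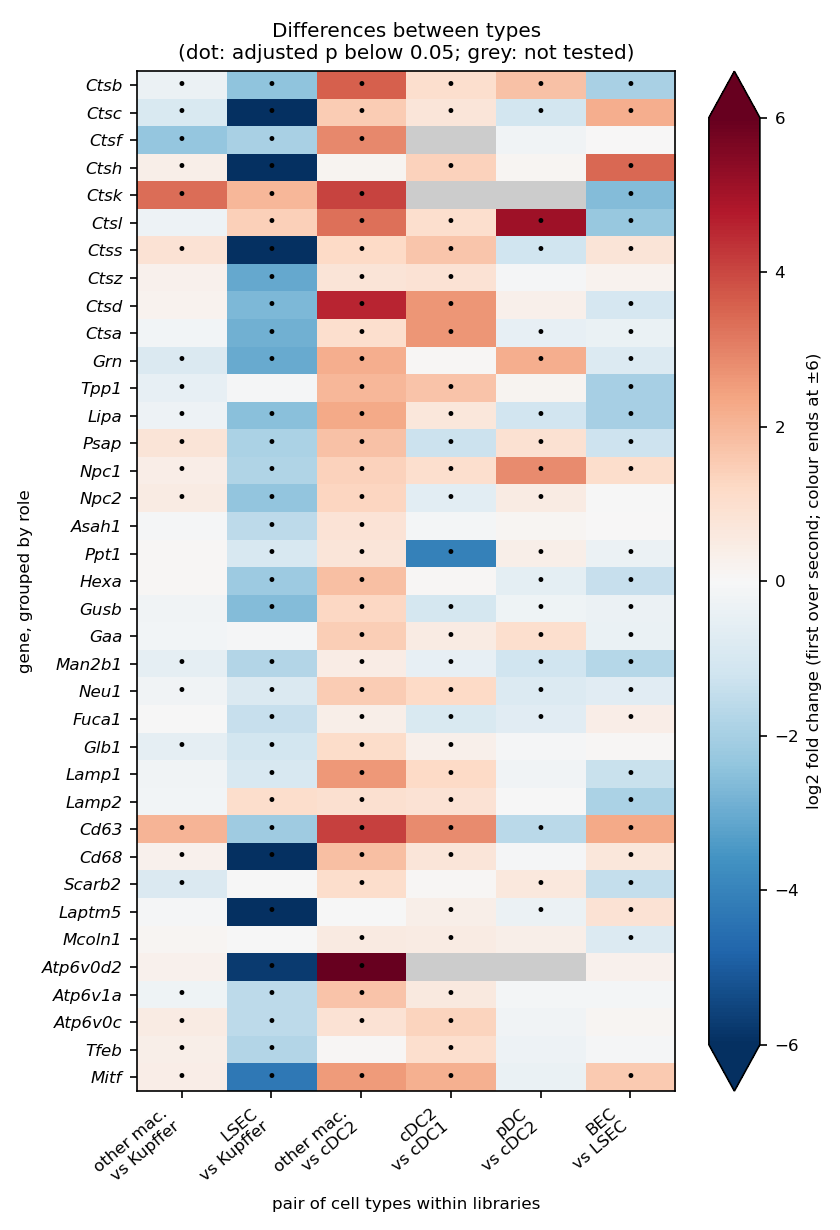
Log2 difference of each of the 37 genes in the 6 within-library comparisons of cell types, on a colour scale that ends at ±6, with genes in rows, comparisons in columns and a dot where the adjusted p was below 0.05. Values run from -7.30 (Ctsc, LSEC against Kupffer) to 6.17 (Atp6v0d2, other macrophage against cDC2).

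Under DDC, several lysosomal genes rose in macrophages. The 10 DDC libraries were set against the 2 D0 libraries with isolation protocol as a term. In Kupffer cells, 6 of 36 genes tested rose and 0 fell, while 2.35% of 9156 genes (1.04% higher and 1.31% lower) were called. In other macrophages, 9 of 37 rose and 2 fell, with 5.64% of 10394 genes (2.82% higher and 2.82% lower) called. The median log2 change of the members was 0.30 in Kupffer cells, against 0.04 over all genes tested, and 0.51 in other macrophages, against 0.09. Scaling by total counts gave 2 higher and 1 lower in Kupffer cells, and 6 and 2 in other macrophages. The medians of the members were then 0.03 and 0.27, against -0.27 and -0.19 over all genes tested. Both comparisons use the same libraries, so their values are set side by side. The share of UMIs in the 37 genes was 2.06% ± 0.0520 at D0 (n = 2) and 2.90% ± 0.363 under DDC (n = 10) in other macrophages, without overlap, and 2.57% ± 0.274 and 2.75% ± 0.311 in Kupffer cells. Summed levels of the other-macrophage markers (16 of 16 with UMIs) were 28803-40804 CPM at D0 and 36299.6-82167 CPM under DDC in other macrophages, and 22242-31799.9 and 24347-60166 CPM in Kupffer cells. Those of the Kupffer markers (12 of 12) were 15976-20021 and 12001-24512 CPM in Kupffer cells. Markers of other types moved as well. In other macrophages the BEC markers summed to 198-247 CPM at D0 (12 of 16 with UMIs) and 1295-8681 CPM under DDC (16 of 16), the LSEC markers (12 of 12) to 1833-1963 and 648-1096 CPM, and the cDC1 markers (10 of 10) to 582-746 and 182-370.5 CPM, none with overlap. Those of cDC2, pDC, other endothelial cells, B cells and neutrophils were also lower under DDC without overlap. Cycling genes were lower too. The BEC and other-macrophage marker lists share Spp1, a leading gene of m2, so the BEC sums can hold macrophage RNA. In Kupffer cells the monocyte markers went from 835-1188 CPM (8 of 11) to 333-692 CPM (11 of 11) without overlap, and the BEC markers from 50.9-119.7 CPM (13 of 16) to 62.6-692 CPM (16 of 16) with overlap. Markers of other endothelial cells (132-143 and 9.01-112 CPM), B cells (62.8-91.7 and 7.16-54.5 CPM) and plasma cells (183-251 and 74.5-136 CPM) were also lower there without overlap. The part of these shifts in the results was not tested.

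Cd63 was higher in every DDC library than at D0 in both macrophage groups. In Kupffer cells D0 A held 20.7 CPM and D0 B 20.4 CPM, the latter from 2 UMIs, and DDC libraries held 50.1 to 1212 CPM with a median of 479. The log2 change was 3.98 (SE 0.63, adjusted p = 0.0033). In other macrophages it was at 195 and 626 CPM at D0 and 794 to 2294 CPM under DDC with a median of 1428, a log2 change of 2.16 (SE 0.40, adjusted p = 0.0074). Within Kupffer cells the lowest DDC library was D3 A and the highest D25 B, and the ranges of D0 and DDC did not meet. With each cell thinned to 1500 UMIs, the share of Kupffer cells with a Cd63 UMI was 2.07% and 4.17% at D0 and 5.35% to 70.3% under DDC. Unthinned, it was 4.14% and 8.33%, and 23.3% to 92.1%. T cells, thinned alike, had 1.28% and 0.443% at D0 and 0% to 14.3% under DDC. Free RNA of Cd63 also went up, since barcodes with under 100 UMIs held 91.2 and 61.1 CPM at D0 and 137 to 1031 CPM under DDC, and its part in the result was not tested.

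Atp6v0d2 was not counted in Kupffer cells at D0. Its count was 0 of 1978280 UMIs there, which allows up to 1.52 CPM (3 counts over the group). DDC libraries held 3.80 to 277 CPM, again lowest in D3 A and highest in D25 B, with a mean of 121 CPM, at least 79.8-fold higher (adjusted p = 0.019 in edgeR's test). That bound rests on D0 A, with 1880133 of these UMIs. From D0 B alone, with 98147 UMIs, 3 counts allow up to 30.6 CPM and the bound is at least 3.96-fold. The call was lost without D0 A (adjusted p = 0.33) and without D0 B (adjusted p = 0.078). In other macrophages D0 A held 6.55 CPM (4 UMIs) and D0 B 0, and DDC libraries 22.8 to 274 CPM, all above D0. The log2 change there was 4.11 (SE 0.99, adjusted p = 0.028), and it was 11.90 (adjusted p = 0.27) without D0 A, whose absence leaves D0 at a count of 0, and 3.71 (adjusted p = 0.079) without D0 B. Within protocol A alone it was 3.77 (adjusted p = 0.12) and within protocol B alone, again against a count of 0, 11.09 (adjusted p = 0.2). T cells held 1.79 ± 1.41 CPM (SD, n = 12). Free RNA of Atp6v0d2 went up too, since barcodes with under 100 UMIs held 0.660 and 0 CPM at D0 and 5.19 to 53.0 CPM under DDC. In D3 A they held 5.19 CPM, above the 3.80 CPM of its Kupffer cells. The part of free RNA in these changes was not tested.

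Ctsd and Lipa rose in both macrophage groups. Ctsd was at 25.5 and 50.9 CPM at D0 in Kupffer cells and 44.0 to 198 CPM under DDC (median 131), where D3 A lay below D0 B, and its log2 change was 2.20 (SE 0.56, adjusted p = 0.044). In other macrophages it was at 11.5 and 45.9 CPM at D0 and 76.4 to 218 CPM under DDC (median 134), without overlap, a log2 change of 2.88 (SE 0.60, adjusted p = 0.014). Lipa is the acid lipase that frees cholesterol and fatty acids from lipoproteins. It was at 521 and 601 CPM at D0 in Kupffer cells and 548 to 1118 CPM under DDC (median 887), with D3 A between the D0 libraries, a log2 change of 0.85 (SE 0.21, adjusted p = 0.044). In other macrophages it was at 288 and 304 CPM at D0 and 519.9 to 915 CPM under DDC (median 740.0), without overlap, a log2 change of 1.5 (SE 0.25, adjusted p = 0.0039). In Kupffer cells the call of Ctsd was lost without any one of D0 A, D0 B, D3 B, D5 A, D5 B, D9 B or D19 B, where its log2 change stayed within 1.67 to 2.38. That of Lipa was lost without any one of D0 A, D0 B, D3 B, D5 A, D5 B, D9 B, D19 B, D25 A or D25 B, within 0.81 to 0.90. In other macrophages both lost their calls without D0 A only, with log2 changes of 1.66 to 3.93 for Ctsd and 1.39 to 1.72 for Lipa over the fits.

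Cd68 and the carboxypeptidase Ctsz were above both D0 libraries in all 10 DDC libraries of each macrophage group. Cd68 was at 481 and 326 CPM at D0 and 489 to 1129 CPM under DDC (median 819.6) in Kupffer cells, a log2 change of 1.13 (SE 0.27, adjusted p = 0.034). In other macrophages it was at 447 and 551 CPM at D0 and 664 to 1164 CPM under DDC (median 912), a log2 change of 1.13 (SE 0.24, adjusted p = 0.016). The lowest DDC Kupffer library lay just above D0 A for each gene. Ctsz was at 590.4 and 418 CPM at D0 and 596 to 1674 CPM under DDC (median 1200.1) in Kupffer cells, a log2 change of 1.26 (SE 0.28, adjusted p = 0.026). In other macrophages it was at 582 and 672 CPM at D0 and 968 to 1713 CPM under DDC (median 1251), a log2 change of 1.21 (SE 0.24, adjusted p = 0.012). In Kupffer cells both lost their calls without D0 A, D0 B or D5 A (0.74 to 1.84 for Cd68, 0.92 to 1.84 for Ctsz), and in other macrophages without D0 A (1.03 to 1.34 for Cd68, and up to 1.37 for Ctsz).

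In other macrophages, Ctsb, Ctss and Gusb rose too, while Ctsc and Ppt1 fell. Ctsb was at 2937 and 3306 CPM at D0 and 3669 to 6804 CPM under DDC (log2 change 1.06, SE 0.26, adjusted p = 0.031). Ctss was at 3083 and 3002 CPM and 3597 to 5883 CPM (log2 change 0.90, SE 0.22, adjusted p = 0.031), and Gusb at 123 and 74.6 CPM and 152 to 247 CPM (log2 change 1.08, SE 0.22, adjusted p = 0.014). For Ctsc the values were 1782 and 1056 CPM at D0 and 612 to 820.3 CPM under DDC (log2 change -0.75, SE 0.19, adjusted p = 0.036), and for Ppt1 197 and 367 CPM and 97.4 to 166 CPM (log2 change -0.87, SE 0.18, adjusted p = 0.014). None of these 5 genes overlapped between D0 and DDC. Ctsf, which was not called, was also below D0 in every DDC library there. For macrophages, here and above, the share of all genes without overlap was not computed. Ppt1 is highest in cDC1, whose markers were also lower under DDC in other macrophages, and barcodes with under 100 UMIs held 65.5 CPM of Ppt1 in D0 A and 348 CPM in D0 B, close to the level of the D0 B macrophages, and 66.4 to 178 CPM under DDC. The part of this in the fall of Ppt1 was not tested. Calls were lost without D0 A, D5 A, D9 B, D19 B or D25 A for Ctsc (-1.02 to -0.29), D0 A, D3 A, D3 B or D5 A for Ctsb (0.91 to 1.36), D0 A, D0 B, D3 A or D5 A for Ctss (0.80 to 1.01), D0 A or D0 B for Gusb (0.88 to 1.67) and D0 B for Ppt1 (-1.18 to -0.45). In Kupffer cells Ctsb (7064 and 5634 CPM at D0, 5257 to 8022 CPM under DDC) and Ctss (2749 and 3046 and 1975 to 3496 CPM) were not called. Grn (2597 and 2079 and 1445 to 2021 CPM) and Laptm5 (1760.0 and 1722 and 1179.7 to 1708 CPM) were below D0 in all 10 DDC Kupffer libraries without passing the test. So were Neu1 and Glb1. The members above D0 in all 10 were Cd63, Cd68, Ctsz and Atp6v0d2. Tfeb and Mitf were not called in any comparison of DDC with D0, while Tfe3, of the other lysosomal genes, was called in cDC2, as given below.

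**Figure D3:**
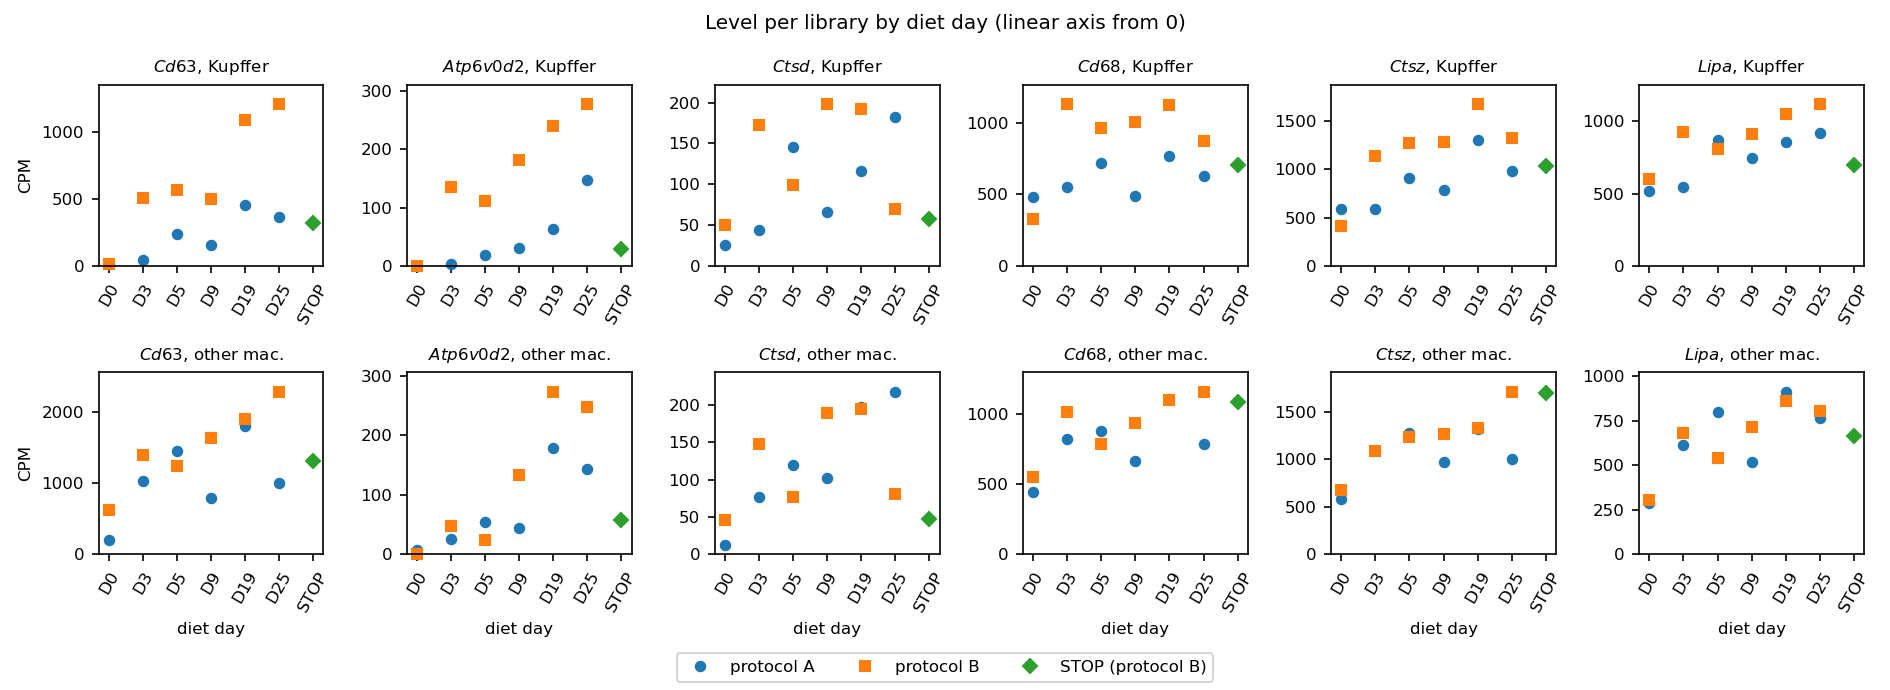
Level in CPM (linear axes from 0) of Cd63, Atp6v0d2, Ctsd, Cd68, Ctsz and Lipa by diet day in Kupffer cells and other macrophages, 1 point per library, with circles for protocol A, squares for protocol B and a diamond for STOP. Cd63 in Kupffer cells is at 20.7 and 20.4 CPM at D0 and reaches 1212 CPM in D25 B.

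The number of members called moved with single libraries, most of all with those of D0. Without D0 A, 0 members were called in Kupffer cells and 1 in other macrophages, and without D0 B 0 and 9. Without D5 A, 2 were called in Kupffer cells. The log2 change of Cd63 in Kupffer cells was 5.30 (adjusted p = 0.1) without D0 A and 3.72 (adjusted p = 0.056) without D0 B. In other macrophages it was 1.58 (adjusted p = 0.17) and 3.03 (adjusted p = 0.0065). A fit without 1 D0 library or within 1 protocol sets DDC against a single D0 library, which is assumed to vary like the others, and for protocol B in Kupffer cells that library had 24 cells and 2 UMIs of Cd63. Within protocol A alone, Cd63 changed by 3.67 (adjusted p = 0.17) in Kupffer cells and 3.05 (adjusted p = 0.045) in other macrophages, and within protocol B alone by 5.15 (adjusted p = 0.0057) and 1.48 (adjusted p = 0.19). Protocol A alone gave 0 calls in Kupffer cells and 2 in other macrophages (Cd63 and Ctsd), and protocol B alone 2 (Cd63 and Atp6v0d2) and 0.

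The clusters within each macrophage group differed in level, given here as a description with no test. In Kupffer cluster m14, Cd63 was at 81.1 CPM, Atp6v0d2 at 10.8 CPM and Lipa at 650.3 CPM, and in m12 at 506, 114 and 969 CPM. With the cells of m14 alone, only 5 libraries held 20 cells or more (D0 A, D0 B, D3 A, D5 A and D9 A), and over these Cd63 changed under DDC by 2.52 (adjusted p = 0.027) and was the 1 member called. Among other macrophages, m2, with Fabp5, Gpnmb and Spp1 among its leading genes, had 2319.8 CPM of Cd63, 289 CPM of Atp6v0d2, 1214 CPM of Ctsl and 30.1 CPM of Ctsk. In m5 these were at 1001, 14.1, 379 and 0.771 CPM. The steady-state cluster m39 had 162 CPM of Cd63 and 7.71 CPM of Ctsd. Without m2 and m7, 7 members were called in other macrophages, with Cd63 at 1.58 (adjusted p = 0.018), Lipa at 1.13 (adjusted p = 0.013) and Ctsd at 2.37 (adjusted p = 0.04), while Atp6v0d2 at 2.07 (adjusted p = 0.33) and Ctsb at 0.72 (adjusted p = 0.12) were not called.

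Between onset and progression, 1 member was called, Atp6v0d2 in other macrophages. It was at 24.9 CPM in D3 A, 46.6 in D3 B, 53.1 in D5 A and 22.8 in D5 B, and at 44.0 to 274 CPM in the 6 progression libraries (median 161). D9 A lay within the onset range and the other progression libraries above it. The log2 change was 2.15 (SE 0.40, adjusted p = 0.033), with 0.337% of 10394 genes (0.221% higher and 0.115% lower) called. It was not called within protocol A alone, at 1.65 (adjusted p = 0.61), without m2 and m7, at 1.67 (adjusted p = 0.19), or without D3 A, D3 B, D5 B, D19 B, D25 A or D25 B, where the log2 change lay between 1.91 and 2.20. Ctsl in other macrophages was at 198 to 358 CPM at onset and 382 to 1120.2 CPM at progression, without overlap, with a log2 change of 1.39 (SE 0.31, adjusted p = 0.075) that missed the threshold. In Kupffer cells, Atp6v0d2 had a log2 change of 1.85 (SE 0.48, adjusted p = 0.15) and Cd63 of 1.01 (SE 0.36, adjusted p = 0.33), neither of them called. By edgeR's test 0 members were called in Kupffer cells (6 at an unadjusted p under 0.05, with 0.197% of all genes called), cDC1 (2, 0.0102%), cDC2 (9, 0.0256%), pDC (4, 0.0205%), LSEC (7, 0.0289%) and BEC (1, 0.0%). DESeq2 called 2 in cDC2, 1 in LSEC and 0 in the other 4 types, with its counts over all genes given in the last section.

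In cDC2, Lamp2 and Cd63 passed the test as higher under DDC, both from D0 levels below those of barcodes with under 100 UMIs. They were a smaller share of the members than that of all genes called. These were 2 of 36 members, against 9.48% of 11711 genes (3.87% higher and 5.61% lower) called. Lamp2 was at 66.6 CPM in D0 B and 149 to 369 CPM in the 10 DDC libraries (median 239.6), with a log2 change of 1.54 (SE 0.32, adjusted p = 0.009). Cd63 was at 7.68 CPM in D0 B and 29.97 to 348 CPM under DDC (median 89.1), with a log2 change of 2.62 (SE 0.81, adjusted p = 0.0499). All DDC libraries lay above D0 B for both genes, as they did for many members that were not called. The share over all genes was not computed. With the highest doublet scores removed, the change of Cd63 was 2.55 (adjusted p = 0.051). Other-macrophage markers summed to 459.9 CPM in D0 B (15 of 16 with UMIs) and 1101 to 6689 CPM under DDC (16 of 16), and T cells had 3.59 to 82.7 CPM of Cd63. With CPM in D0 B set against the range under DDC, markers of Kupffer cells (23.8 against 34.4-196), cDC1 (288 against 304-434), BEC (181 against 185-424) and stellate cells or fibroblasts (5.89 against 7.27-59.9) were also higher, and those of other endothelial cells (275 against 37.3-177), B cells (224 against 47.1-149.7) and cycling cells (205 against 70.0-168) lower, in every DDC library. Barcodes with under 100 UMIs in protocol B held 123 CPM of Lamp2 at D0 and 136 to 263 CPM under DDC. Of Cd63 they held 61.1 CPM at D0 and 237 to 497 CPM under DDC. In protocol A such barcodes held 487 to 644 CPM of Lamp2 and 137 to 1031 CPM of Cd63 under DDC. Cd63 in cDC2 was below them in D0 B and in all 6 progression libraries, with 348 against 1031 CPM in D19 A, its highest library. The part of these in the results was not tested. The call of Cd63 was lost without any one of D5 B, D9 A, D9 B, D19 B or D25 A, where its log2 change stayed within 2.39 to 2.74.

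In pDC, Ctsl, Atp6v0c and Lamp1, a major glycoprotein of the lysosomal membrane, fell under DDC, while Lamp2 rose. Cd63 also passed the test, at levels below those of barcodes with under 100 UMIs. The share of members called was below that of all genes. This was 5 of 35 members, against 17.2% of 9734 genes (7.72% higher and 9.48% lower) called. Ctsl was at 3689.5 CPM in D0 B and 1162 to 2096 CPM in the 7 DDC libraries (median 1719), a log2 change of -1.35 (SE 0.27, adjusted p = 0.0055). Atp6v0c was at 1058 CPM and 632 to 836 CPM (log2 change -0.86, SE 0.25, adjusted p = 0.026), Lamp1 at 97.6 CPM and 33.0 to 93.5 CPM (log2 change -0.96, SE 0.30, adjusted p = 0.035), and Lamp2 at 133 CPM and 265 to 343 CPM (log2 change 0.87, SE 0.26, adjusted p = 0.032). D0 B lay outside the DDC range for these 4 genes, as it did for many members that were not called. The share over all genes was not computed. Cd63 was at 3.03 CPM in D0 B (9 UMIs) and 0 to 46.8 CPM under DDC (0 to 98 UMIs), with D5 A below D0 B and a log2 change of 3.01 (SE 0.78, adjusted p = 0.018). All of these lie below barcodes with under 100 UMIs, which in protocol B held 61.1 CPM of Cd63 at D0 and 237 to 497 CPM under DDC. Cd63 is kept apart from the other 4 genes for this reason, and the part of free RNA in its change was not tested. Free RNA moved as well, with Ctsl and Atp6v0c lower and Lamp2 higher under DDC in every protocol B library, and Lamp1 lower in all of them but D19 B. In protocol B barcodes with under 100 UMIs, Ctsl was at 511 CPM at D0 and 209.8 to 375 CPM under DDC, Atp6v0c at 735 and 518 to 586 CPM, Lamp1 at 89.8 and 23.3 to 93.8 CPM, and Lamp2 at 123 and 136 to 263 CPM. Other-macrophage markers in pDC summed to 224 CPM in D0 B (14 of 16 with UMIs) and 570.4 to 2729 CPM under DDC (16 of 16). With CPM in D0 B set against the range under DDC, the markers of pDC themselves were lower (18769 against 14347-18402), as were those of cDC2 (2008 against 1339-1841), B cells (1668 against 1080.4-1275), hepatocytes (148 against 24.8-141) and cycling cells (97.9 against 22.3-49.2), and those of monocytes (3741 against 4131-6187), Kupffer cells (10.8 against 15.3-146) and stellate cells or fibroblasts (2.02 against 4.45-66.0) were higher, in every DDC library. The part of these in the results was not tested. Calls were lost without D5 B for Lamp1 (-1.06 to -0.85), D19 B for Atp6v0c (-0.92 to -0.83) and D5 B, D9 B or D19 B for Lamp2 (0.84 to 0.91). Scaling by total counts gave 4 higher and 1 lower in place of 2 and 3, and with the highest doublet scores removed Lamp2 changed by 0.76 (adjusted p = 0.052). D0 is 1 library for cDC2, for pDC and for BEC, and is assumed to vary like the others.

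In cDC1, 0 of 32 members were called by edgeR (2 at an unadjusted p under 0.05) and 0 by DESeq2, with 0.45% of 9770 genes called. Ppt1 was at 1904 and 1455 CPM at D0 and 1067 to 1837 CPM under DDC. Psap was at 3540.0 and 2054 CPM and 918 to 2718 CPM, and both genes overlapped between D0 and DDC.

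**Figure D4:**
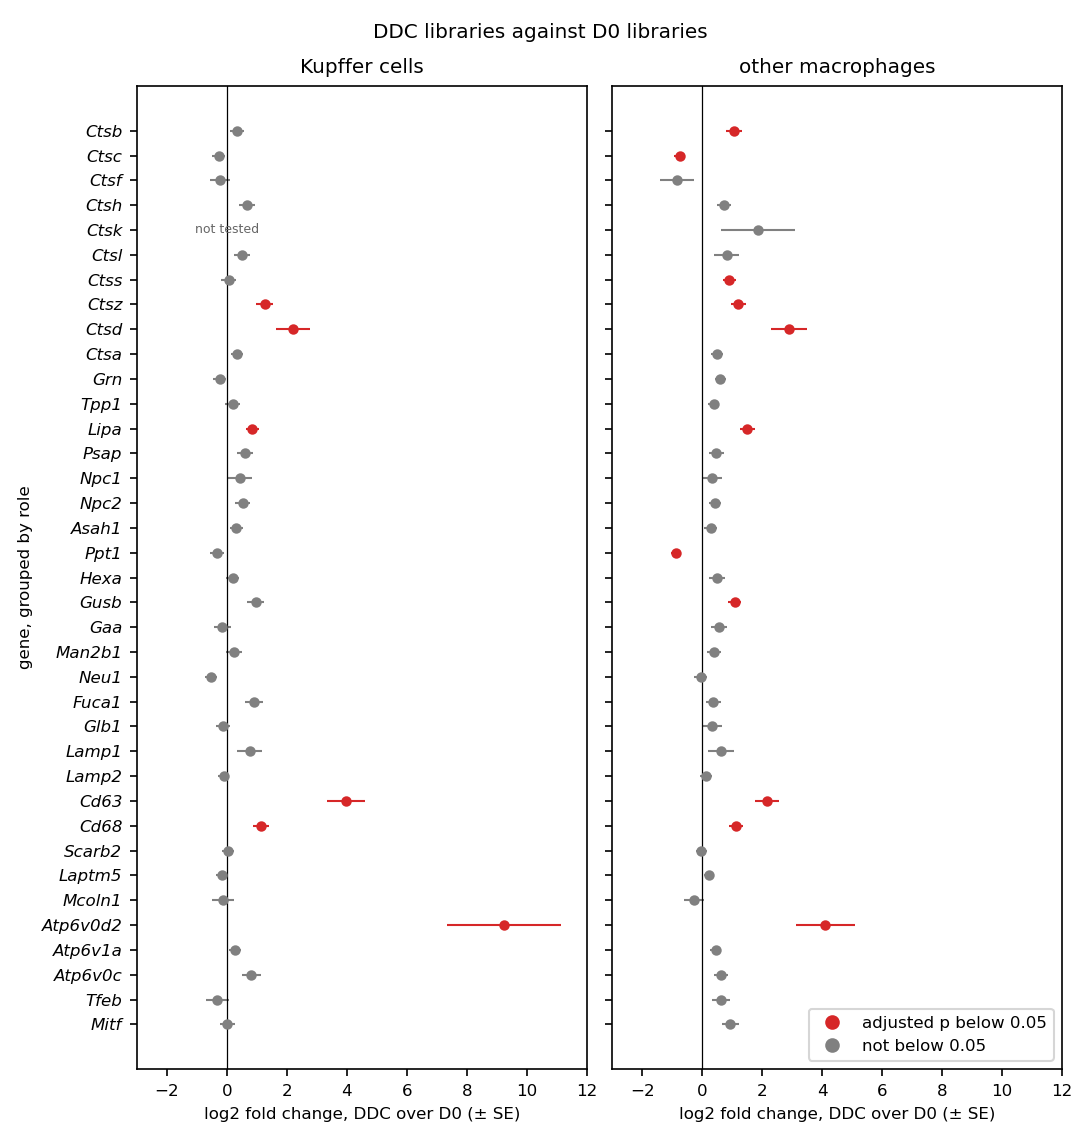
Log2 change under DDC against D0 for the 37 genes in Kupffer cells and in other macrophages, with points for the fitted change, bars for ± SE and red where the adjusted p was below 0.05. Red points number 6 in Kupffer cells and 11 in other macrophages.

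In LSEC, Ctsb was above D0 in every DDC library and Man2b1 and Scarb2 were below it, but edgeR called none of them. The share of all genes without overlap was not computed. By edgeR's test 0 of 36 members were called (4 at an unadjusted p under 0.05, 2 by DESeq2), with 0.0579% of 10365 genes called. Ctsb was at 988 and 870.3 CPM at D0 and 1208 to 2202 CPM under DDC, with a log2 change of 0.91 (SE 0.22, adjusted p = 0.17). Barcodes with under 100 UMIs held 1457 CPM of Ctsb in D0 A and 1409 to 3219 CPM under DDC in protocol A. In protocol B they held 398 CPM at D0 and 447 to 964 CPM under DDC. The part of free RNA was not tested. Cd63 was at 11.3 and 28.5 CPM at D0, 14.2 to 83.1 CPM at onset and 54.2 to 379 CPM at progression. Its log2 change was 2.55 (SE 0.81, adjusted p = 0.31) under DDC and 2.33 (SE 0.50, adjusted p = 0.15) between onset and progression. LSEC markers (12 of 12) summed to 29762-31615 CPM at D0 and 16052-26119 CPM under DDC, without overlap. The cluster a18 had 309 CPM of Cd63, and a0 and a1 had 69.8 and 56.2 CPM. Lamp2 (1661 and 1244 CPM at D0, 1116 to 1501 CPM under DDC) and Ctsl (1457 and 2661 and 1271 to 2315 CPM) overlapped.

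In BEC, 0 of 37 members were called by edgeR, with 0.808% of 14966 genes called. DESeq2 called 4 members, with its count over all genes given in the last section. Lamp1 was at 37.9 CPM in D0 A and 67.9 to 163 CPM in the 8 DDC libraries, all above it, with a log2 change of 2.1 (SE 0.43, adjusted p = 0.056) that missed the threshold. Ctsb was at 331 CPM and 306 to 679.7 CPM, and Cd63 at 421 CPM and 414 to 693 CPM, both with overlap. For many members besides Lamp1, D0 A lay outside the DDC range, and the share over all genes was not computed. Markers of other types in BEC moved too, with hepatocyte markers (10 of 10 with UMIs) at 6259 CPM in D0 A and 1226 to 4013 CPM under DDC, those of other endothelial cells (11 of 11) at 695 and 263 to 371 CPM, and those of stellate cells or fibroblasts (13 of 14) at 384 and 503 to 1481 CPM. cDC1 and B cell markers were also lower, and pDC markers and cycling genes higher, than in D0 A in every DDC library. The part of these in the levels was not tested.

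**Figure D5:**
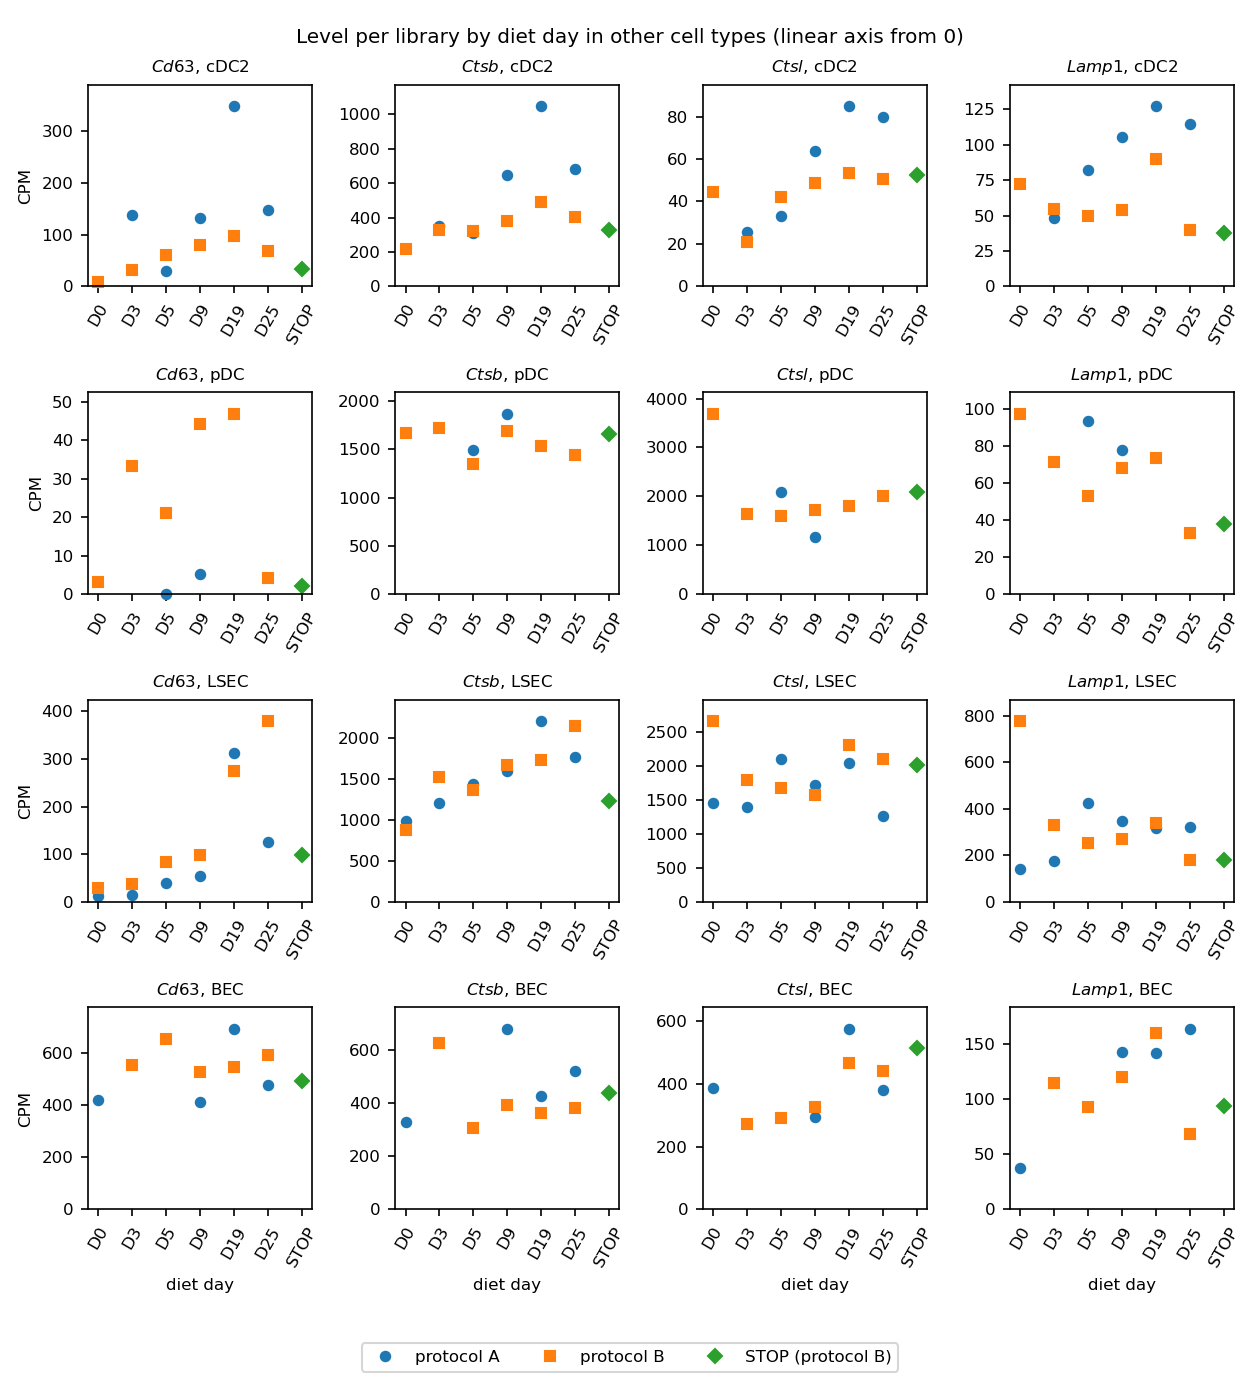
Level in CPM (linear axes from 0) of Cd63, Ctsb, Ctsl and Lamp1 by diet day in cDC2, pDC, LSEC and BEC, 1 point per library, with circles for protocol A, squares for protocol B and a diamond for STOP. Ctsl in pDC is at 3689.5 CPM in D0 B and 1162 to 2096 CPM under DDC.

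Of 73 other lysosomal genes, 2 of 69 tested rose under DDC in Kupffer cells, Gpnmb, a membrane glycoprotein (5.96), and the cathepsin inhibitor Cstb (1.56), and 0 fell. In other macrophages 10 of 72 rose and 0 fell, with the largest log2 changes in Gpnmb (3.87), the sorting receptors Sort1 (3.72) and Igf2r (2.29), and Naglu, an enzyme of heparan sulfate breakdown (2.02). In cDC2, 3 of 72 rose, Gpnmb (8.92), Ids (1.49) and Tfe3 (0.997). There 4 fell, Atp6v0b (-1.48), Lamtor2 (-1.18), the cathepsin inhibitor Cst3 (-1.06) and Laptm4a (-0.81). In pDC, 5 of 65 rose and 9 fell. The largest log2 changes were in Gpnmb (4.98), Sort1 (1.45), Ids (1.33) and Cd164 (1.04). Among those that fell they were in Cst3 (-1.51), Atp6v0b (-1.34), Lamtor2 (-1.21) and Aga (-0.97). In cDC1, LSEC and BEC 0 were called. Gpnmb also served as a marker of other macrophages. The shares of all genes called are those given above.

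After recovery, several of these genes were lower in macrophages than in the D19 B library. The STOP library has no replicate, so it was set against D19 B, of the same protocol, with exact 95% Poisson intervals that cover counting error only, and no test was made. A difference was counted where it was at least 2-fold with separate intervals, among genes of at least 20 CPM in either library. In Kupffer cells (72 cells in STOP, 101 in D19 B), 7 of 36 members were lower and 1 higher, against 3.84% and 7.06% of all genes. Of these cells, 27 in STOP and 3 in D19 B lay in m14, which had less Cd63 and Atp6v0d2 than m12 in the atlas libraries. The part of this was not tested. Atp6v0d2 was at 28.9 CPM (18.1-43.7) in STOP and 239 CPM (214-266) in D19 B. Cd63 was at 320.2 CPM (281-363) in STOP and 1094 CPM (1039.6-1150.0) in D19 B. Both STOP levels lay within the range of the DDC libraries (3.80 to 277 and 50.1 to 1212 CPM). Cd63 in STOP was above D0 B, where it had been at 20.4 CPM. Atp6v0d2 could not be set against D0 B, whose count of 0 allows a level above that of STOP. Lamp1 was at 281 CPM (244-321) in STOP and 933 CPM (883-985) in D19 B. Barcodes with under 100 UMIs held 39.9 CPM of Lamp1 in STOP and 93.8 CPM in D19 B. In the other DDC libraries of protocol B they held 23.3 to 58.0 CPM, so D19 B was high there too. Of Cd63 such barcodes held 195 CPM in STOP and 457 CPM in D19 B, and of Atp6v0d2 2.32 and 35.7 CPM. The part of free RNA in these differences was not tested. Ctsd, Ctsl, Npc1 and Fuca1 were lower too. Ctsc was higher, at 2044 CPM (1944-2149) in STOP and 963 CPM (912-1016) in D19 B, and had been at 1865 CPM in D0 B.

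In other macrophages (141 and 562 cells), 4 of 36 members were lower and 1 higher, against 3.4% and 3.87% of all genes. Atp6v0d2 was at 56.7 CPM (45.1-70.4) in STOP and 274 CPM (261-287) in D19 B. Ctsd was at 47.0 CPM (36.5-59.6) in STOP and 196 CPM (185-207) in D19 B. STOP lay within the DDC range for Atp6v0d2 (22.8 to 274 CPM, highest in D19 B) and below it for Ctsd (76.4 to 218 CPM). Lamp1 (298 against 713 CPM) and Ctsk (11.8 against 25.2 CPM) were also lower. Ctsc was higher, at 1344 CPM (1284-1405) in STOP and 666 CPM (646-687) in D19 B. Cd63 (1308 against 1902 CPM) and Ctsz (1694 against 1328 CPM) differed less than 2-fold.

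In the other types few members passed. In cDC2, 2 of 30 were lower, Cd63 (33.1 against 98.1 CPM) and Lamp1 (37.8 against 90.0 CPM), and 0 higher, against 3.9% and 2.76% of all genes. Barcodes with under 100 UMIs were lower in STOP too, in Cd63 (195 against 457 CPM) and Lamp1 (39.9 against 93.8 CPM). In LSEC, 2 of 29 were lower, Cd63 (98.1 against 274 CPM) and Ctsd (7.78 against 28.6 CPM), and 0 higher, against 2.52% and 5.47%. For both genes these LSEC levels lay below barcodes with under 100 UMIs of the same library. Such barcodes also held less of both genes in STOP than in D19 B. The part of free RNA in the LSEC differences was not tested. In pDC, 1 of 30 was lower, Cd63 (2.11 against 46.8 CPM, both below barcodes with under 100 UMIs), and 1 higher, the hexosaminidase Hexa (203 against 67.9 CPM), against 2.91% and 2.94%. In cDC1, 1 of 24 was lower, Lamp1 (14.7 against 33.1 CPM), and 1 higher, Hexa (199 against 94.2 CPM), against 3.9% and 2.53%. In BEC, 0 of 31 were lower and 4 higher, against 2.35% and 5.22%, namely Psap (315 against 111 CPM), Laptm5 (106 against 40.7 CPM), Hexa (73.8 against 33.6 CPM) and Cd68 (33.1 against 16.1 CPM).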

How the data were processed

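Droplet 10x Genomics 3′ libraries were mapped by the authors with kallisto to GRCm38, and deposited as raw UMI counts per gene and barcode with no normalization. Tool versions and the annotation are not given in the sources used here. The 37 genes and the marker lists were chosen with earlier results of these data known. Barcodes with at least 1500 UMIs were kept and clustered by the Leiden method in igraph 0.11.9 (2000 variable genes, 40 principal components, 25 neighbours, resolution 1.5). Myeloid cells were clustered again (30 components). A cluster took the name of a type with at least 3 detected markers (in at least 10% of its cells and at least 2-fold above other cells). The naming rules were set after the clusters were seen. Doublets, scored in scanpy 1.11.5, were kept, and removed in an alternative. Counts were summed per library and type with at least 20 cells. edgeR 4.0.16 in R 4.3.3 (quasi-likelihood test, TMM scaling, filterByExpr) was fitted with stage and isolation protocol as terms, or with library as a block between types, and Benjamini-Hochberg adjusted over all genes tested, at a threshold of 0.05. SEs were taken from the fold change and the F statistic. DESeq2 1.42.0 was an alternative. In each comparison at most 8 called members per direction were named, chosen by the size of the log2 change, and a fixed set of 17 members (Ctsb, Ctsd, Ctss, Ctsl, Ctsk, Cd63, Cd68, Lamp1, Lipa, Psap, Grn, Npc2, Laptm5, Atp6v0d2, Atp6v0c, Tfeb and Mitf) could be named anywhere. Of the other lysosomal genes at most 4 per direction were named. The fits were tested on simulated counts. Intervals and floors cover counting error only. Whether D0 and DDC libraries overlapped was read for the 37 genes and the marker sums, with no share over all genes. Further members without overlap in macrophages and LSEC were named outside the naming rule. Overlap with other genes was read from GENCODE annotation of the same build. The sensitivity of Ctss, Ctsl, Cd63, Atp6v0d2, Ctsb, Lamp1 and Tfeb outside that rule was added after the data were seen.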

Additional observations from a re-analysis of the deposited data

Results flagged for a closer look

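Among 48 groups of 4 to 10 libraries, 2 held a library far from the others by Dixon's criterion, and chance alone flags about 1 in 20 such groups. Cd63 in cDC2 at progression was at 348 CPM in D19 A, with the next library at 147 CPM (n = 6). Lamp2 in pDC at progression was at 265 CPM in D25 B, with the next library at 326 CPM (n = 4).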

How the results depend on the processing

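Counts of members called (of 37) under DDC and between onset and progression moved with several settings, and the cause was not tested. Under DDC in Kupffer cells 6 were called, and 3 with total-count scaling, 0 at 3000 UMIs per barcode, 0 at 50 cells per library and type (D0 B drops out of both), 1 with m14 alone, 0 within protocol A and 2 within protocol B. In other macrophages 11 were called, and 2 within protocol A, 0 within protocol B and 7 without m2 and m7. In cDC2 2 were called, and 1 with doublet scores removed. In pDC 5 were called, and 3 by DESeq2. From 0, calls went to 1 at 50 cells in cDC1, to 2 by DESeq2 and 4 with no filter on low counts in LSEC, and to 4 and 7 in BEC. Between onset and progression, the 1 call in other macrophages became 3 by DESeq2, 4 with no filter, and 0 within protocol A or without m2 and m7. From 0, calls went to 2 with no filter in Kupffer cells, 3 within protocol A in cDC1, 2 by DESeq2, 3 with no filter and 3 within protocol A in cDC2, 1, 3 and 2 in LSEC, and 1 with no filter in BEC. Within protocol B, other macrophages against Kupffer cells gave 12 calls in place of 22.

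Replicate numbers stand for isolation protocols, so the term for protocol is the block of this design. With no replicate block, members called under DDC were 1 in Kupffer cells, 12 in other macrophages, 0 in cDC1, 1 in cDC2, 4 in pDC, 0 in LSEC and 1 in BEC. No other count of members called moved by over 1.5 times.

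Leaving out 1 library in turn gave, under DDC, 0 to 7 calls in Kupffer cells, 1 to 11 in other macrophages, 0 to 1 in cDC1, 1 to 3 in cDC2, 3 to 7 in pDC, 0 to 0 in LSEC and 0 to 1 in BEC. Between onset and progression it gave 0 to 1 in Kupffer cells, 0 to 2 in other macrophages, 0 to 1 in cDC2 and LSEC, and 0 in cDC1, pDC and BEC. Between types it gave 20 to 23, 33 to 33, 34 to 35, 29 to 30, 19 to 23 and 26 to 28 calls, in the order of the text from other macrophages against Kupffer cells, LSEC against Kupffer cells, other macrophages against cDC2, cDC2 against cDC1, pDC against cDC2 and BEC against LSEC. The cDC2 count moved without D5 B, D9 A, D9 B, D19 B or D25 A, and the pDC count without D5 B or D19 B.

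Of single genes, 27 results under DDC gave 545 values, of which 402 kept their side of the threshold, 136 lost it and 7 gained it, with 0 of opposite sign. Between onset and progression, 5 results gave 111 values (93, 8 and 10, with 0 of opposite sign), and between types 83 results gave 1508 values (1469, 37 and 0). There 2 changed sign, Ctss at -0.30 and Cd68 at -0.13 in BEC against LSEC within protocol A.

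Counts over all genes moved too. In Kupffer cells under DDC, 215 genes were called, and 417 by DESeq2, 525 with total-count scaling, 520 with no filter, 55 at 3000 UMIs, 27 at 50 cells, 71 with no block, 11 and 54 within protocols A and B, and 64 with m14. In other macrophages 586 became 1001 with no filter, 118 and 24 within protocols and 299 without m2 and m7. In cDC1 44 became 171 by DESeq2, 19 with total-count scaling, 463 with no filter, 1024 at 50 cells, 25 with no block, and 69 and 434 within protocols. In cDC2 1110 became 449 within protocol B, and in pDC 1674 became 978 by DESeq2. In LSEC 6 became 105 by DESeq2, 18 with total-count scaling, 226 with no filter, 0 within protocol A and 58 with the further cluster a10, and in BEC 121 became 591, 250 and 1408 under the first 3 of these and 607 with no block. Between onset and progression, DESeq2 and no filter gave 54 and 222 in Kupffer cells (18), 146 and 429 in other macrophages (35), 18 and 200 in cDC1 (1), 75 and 283 in cDC2 (3), 15 and 105 in pDC (2), 81 and 365 in LSEC (3), and 12 and 270 in BEC (0). Smaller shifts of these onset counts under the other settings lay between 0 and 161. Between types, 5010 became 1830 (other macrophages against Kupffer cells, protocol B), 8239 became 4826 (LSEC against Kupffer cells, protocol B), and within protocol A 6311 became 3662, 5988 became 2886 and 6335 became 1870 (against cDC2, cDC2 against cDC1, pDC against cDC2).

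For DDC against D0, no value was obtained within protocol A for cDC2, pDC and BEC, or within protocol B for BEC. Nor was one obtained there without the only D0 library of cDC2, pDC or BEC. Between onset and progression, none was obtained within protocol A for pDC and BEC. D0 B held few Kupffer cells, so its low counts limit the D0 levels.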
